A study of Drosophila melanogaster with 3 samples.

Results

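Regions recovered with chif-eGFP were examined at promoters that belong to a single gene and where the peak of the signal, the summit, lay on the upstream side. A region was taken from the authors' thresholded list on dm6 when its summit was within 500 bp of annotated transcription start sites (TSSs) of exactly 1 protein-coding gene, and when it lay upstream of, or at, the nearest of them by the strand of that gene. The rule took 1146 of 5035 listed regions (22.8%), at 1058 genes, and used no score beyond the authors' threshold. These upstream regions made up 51.0% of the 2245 listed regions with a protein-coding TSS within 500 bp. Of the others, 757 were divergent regions, upstream of genes on both strands, 237 lay at a single gene but downstream of its TSS, and 105 were other arrangements of several genes.

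The data came from 1 group of 3 biological replicates of whole Drosophila melanogaster embryos, males and females pooled, aged 0 to 24 h. The flies carried a stable transgene that makes chiffon (chif) with GFP at its C-terminus. The strain is named for the transcript chif-RB, which the note on the fusion repeats for replicate 1 only, and every sample is of this 1 line. Chromatin was sonicated to 200 to 800 bp and precipitated with an antibody against GFP. Peaks were called by the authors in each replicate and on the 3 replicates pooled, with 1 control file for all lists. An untagged line was not analysed here, so what any embryo promoter would give in this procedure is unknown. In whole embryos, weak recovery from many cells and strong recovery from few cannot be told apart. Depth is unknown because no read counts are given.

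Chiffon is the fly relative of Dbf4, which activates the kinase Cdc7 when replication origins fire, and a later stretch of its product works with the histone acetyltransferase Gcn5. A promoter is the stretch of DNA around a TSS where RNA polymerase II assembles with general factors. In flies, promoters of genes used in most cells often hold the DRE, the site of DREF, or Motif 1, the site of M1BP, while developmental genes more often use a TATA box, an initiator or sites of GAGA factor. Many fly genes stand head to head and share the DNA between them. Here that arrangement is the divergent class, and the upstream regions described below have 1 coding gene to which they can be assigned by distance.

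Sequences are given for the strongest upstream regions and for those that carry the words counted below. They were read from the RefSeq copy of the Release 6 genome, the assembly of dm6, on the strand of the gene and centred on the summit (75 bp to either side, ending before the TSS where it is nearer). CG14100 at 3L:19590545-19590695 (minus strand), ph-p at X:2137268-2137418 (minus) and Ugalt at X:2703853-2703957 (minus) are the strongest ones shown, and none of them holds the words TATCGATA, GGTCACAC or ACAGTG. Rtnl1 at 2L:4997574-4997724 (minus), PAN3 at 3L:3081375-3081525 (plus) and Ptpmeg2 at X:9650880-9651030 (minus) are regions with ACAGTG in the stretch shown, in capitals as ACAGTG or its reverse complement CACTGT.
CG14100: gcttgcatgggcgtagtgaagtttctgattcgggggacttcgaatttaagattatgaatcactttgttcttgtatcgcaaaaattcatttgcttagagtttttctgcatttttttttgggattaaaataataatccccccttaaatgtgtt
ph-p: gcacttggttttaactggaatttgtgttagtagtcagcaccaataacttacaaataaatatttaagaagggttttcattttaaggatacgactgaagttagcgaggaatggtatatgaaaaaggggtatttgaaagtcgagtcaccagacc
Ugalt: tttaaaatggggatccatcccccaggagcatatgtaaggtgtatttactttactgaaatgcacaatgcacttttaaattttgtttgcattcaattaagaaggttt
Rtnl1: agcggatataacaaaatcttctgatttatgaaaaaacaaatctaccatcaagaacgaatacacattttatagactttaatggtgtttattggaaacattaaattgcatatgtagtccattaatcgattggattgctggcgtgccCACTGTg
PAN3: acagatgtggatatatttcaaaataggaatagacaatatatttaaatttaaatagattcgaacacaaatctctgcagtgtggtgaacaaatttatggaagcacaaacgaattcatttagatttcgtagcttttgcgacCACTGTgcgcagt
Ptpmeg2: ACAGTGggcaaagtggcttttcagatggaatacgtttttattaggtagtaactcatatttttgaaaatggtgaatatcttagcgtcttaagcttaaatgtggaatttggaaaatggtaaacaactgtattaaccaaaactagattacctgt

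The next sequences hold the promoter words TATCGATA (the DRE) or GGTCACAC (Motif 1), in capitals. The regions of eEF1gamma at 3R:29220035-29220171 (plus strand) and htk at X:18843456-18843606 (plus) are the strongest with the DRE among those that could be shown. Those of Rnp4F at X:5322713-5322863 (minus) and Wdr62 at 2L:1884470-1884620 (plus) are the strongest with Motif 1 among those that could be shown. The Rnp4F sequence holds both words, and its last run in capitals joins Motif 1 to an overlapping CACTGT. PAN3, eEF1gamma, htk, Rnp4F and Wdr62 were chosen for these words after their values were seen.
eEF1gamma: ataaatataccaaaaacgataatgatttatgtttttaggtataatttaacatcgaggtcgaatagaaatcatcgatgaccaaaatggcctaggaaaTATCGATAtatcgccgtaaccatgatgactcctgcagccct
htk: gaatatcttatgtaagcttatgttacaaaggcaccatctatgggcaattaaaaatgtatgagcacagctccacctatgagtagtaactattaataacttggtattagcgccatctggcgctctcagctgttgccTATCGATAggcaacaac
Rnp4F: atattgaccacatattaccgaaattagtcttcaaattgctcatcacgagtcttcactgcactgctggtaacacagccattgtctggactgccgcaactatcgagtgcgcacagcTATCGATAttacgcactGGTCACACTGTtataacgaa
Wdr62: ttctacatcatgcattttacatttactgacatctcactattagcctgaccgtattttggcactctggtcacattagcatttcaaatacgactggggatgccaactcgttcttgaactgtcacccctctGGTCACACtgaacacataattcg

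The strongest upstream regions were near the head of the list in each replicate. Signal here is the score that the authors' caller gave a region, used only within a list, so replicates are compared by rank, 1 being the highest signal of 30000 regions. The region of px, a gene of wing vein patterning (2R:22514083-22514521, signal 3594), ranked 2, 4 and 1 in replicates 1, 2 and 3, and its summits there lay at -205, -201 and -204 bp from an internal TSS (negative is upstream). CG14100 (3L:19590404-19590827, signal 3349) ranked 3, 1 and 3. Both therefore stood among the first few regions of each replicate. The region of ph-p, a gene of Polycomb repressive complex 1, ranked 5, 5 and 4 (X:2137145-2137596, signal 2894). Its summits lay at -473, -493 and -481 bp from an internal TSS, close to the 500 bp limit of the rule, and ph-p has a near-identical neighbour, ph-d, so its value is uncertain. Ugalt, a UDP-galactose transporter gene, had a region of rank 6, 6 and 7 at X:2703682-2704088, with summits at -28, -33 and -43 bp from its outermost TSS.

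**Figure D1:**
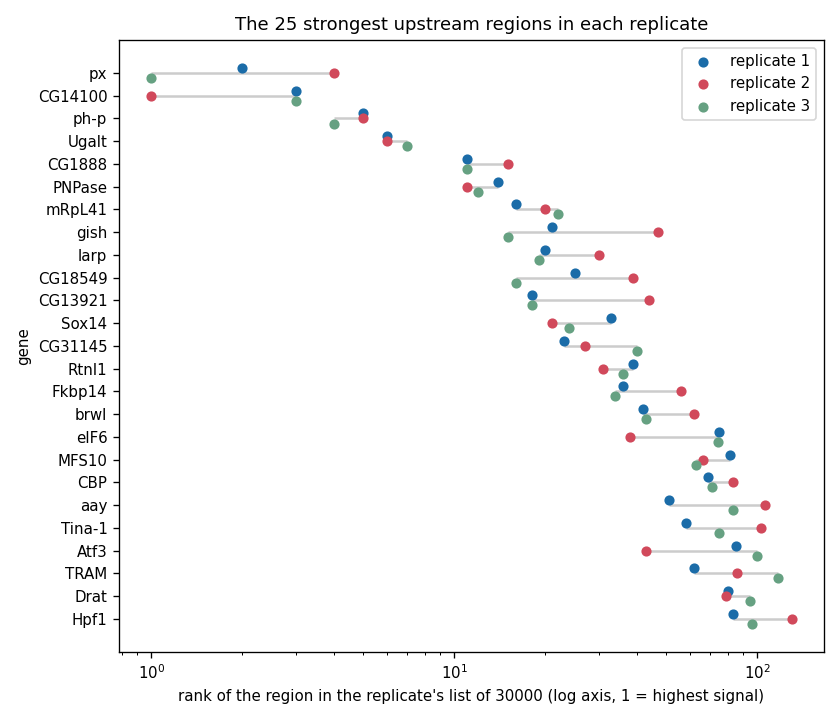
The 25 upstream regions of highest signal (1 per row, named by gene) are shown by their rank in the list of replicate 1 (blue), 2 (red) and 3 (green), on a log axis where 1 is the highest signal of 30000 regions. No rank number exceeds 130, and points of a row are moved slightly apart vertically so that equal ranks can be seen.

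The 25 strongest upstream regions had signals of at least 984, and in each replicate all 25 ranked within the first 85, 130 and 117 regions. High ranks are in part built in, as these 25 were chosen by signal in a list made from the same replicates pooled. The median ranks of the 25 were 33, 39 and 34, so replicate 2 placed them about where the other replicates did. They included PNPase, a mitochondrial exoribonuclease (ranks 14, 11 and 12), mRpL41 of the mitochondrial ribosome (16, 20 and 22), the RNA-binding protein gene larp (20, 30 and 19) and eIF6, a factor of the large ribosomal subunit (75, 38 and 74). Others were Rtnl1, a reticulon (39, 31 and 36), Fkbp14, a prolyl isomerase (36, 56 and 34), and TRAM of the protein translocation machinery (62, 86 and 117). Sox14, an HMG-box transcription factor (33, 21 and 24), Atf3, a bZIP factor (85, 43 and 100), gish, a casein kinase 1 (21, 47 and 15), and Hpf1, a partner of the poly(ADP-ribose) polymerase (83, 130 and 96), were also among them. The gene aay encodes phosphoserine phosphatase (51, 106 and 83). The remaining ones were CG1888, CG18549, CG13921, CG31145, brwl, MFS10, CBP, Tina-1 and Drat. Of the 25 summits, 14 lay at the outermost TSS of their gene, and their positions ran from -488 to -30 bp, with a median of -168 bp.

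Upstream summits were most frequent about 100 bp before the TSS. The median was -154.5 bp (quartiles -268 and -84), and 708 members (61.8%) lay within 200 bp. The rule fixes the side, so the share on it is only a description: of the 1383 single-gene regions, 82.9% lay upstream (95% exact interval 80.8 to 84.8%, counting error only). The 5035 regions of highest signal of a replicate are called its top regions here, and applied to them the same rule took 1161, 872 and 1166 regions in replicates 1, 2 and 3 (1066 ± 168, SD, n = 3). Their share upstream was 76.1%, 82.5% and 80.6% (79.7% ± 3.30), and their median position -151, -200 and -146 bp (-166 ± 29.8). Replicate 2 gave the fewest upstream regions and placed them farthest from the TSS.

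**Figure D2:**
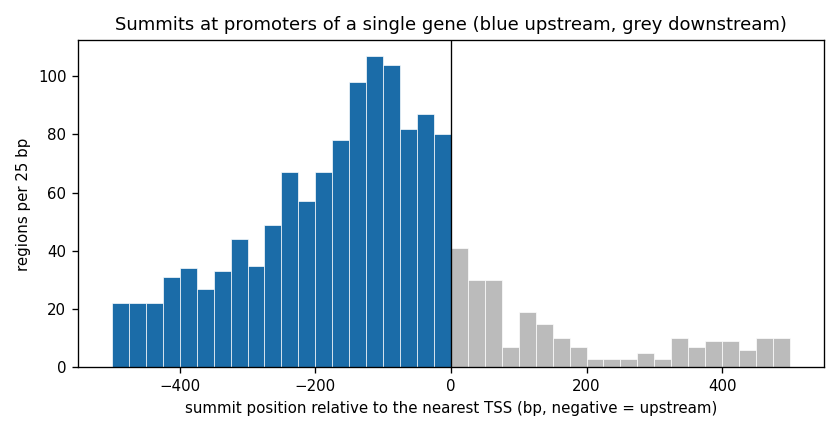
Number of single-gene promoter regions per 25 bp (vertical axis) by the position of the summit relative to the nearest TSS in bp (horizontal axis, negative is upstream), with upstream regions in blue and downstream ones in grey. The 1146 upstream summits have a median of -154.5 bp, and the 237 downstream summits a median of 117 bp.

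Just inside the 500 bp limit were summits of CG9184 at -499 bp (signal 411) and stv at -497 bp (107), and just outside it those of CG15283 at -503 bp (128) and jar at -504 bp (476). Exactly 4 members had their summit at the TSS itself, among them Ccz1 (signal 270) and Fmr1 (224). Just past the TSS, and so no members, were the summits of ush (signal 196) and RpL27 (187), each at +1 bp. The lowest signal of the thresholded list was 106.215 and the highest below it 106.207, so members at the end of the list stand beside unlisted regions of nearly the same score.

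Replicates 1 and 3 held nearly all upstream regions among their top regions, while replicate 2 held fewer, and fewest close to the TSS. A listed region is called backed by a replicate here when its summit lay inside one of that replicate's top regions. Members backed were 88.0%, 63.4% and 90.1% in replicates 1, 2 and 3 (80.5% ± 14.9, SD, n = 3). All 3 replicates backed 619 members (54.0%, against 56.2% of all listed regions, so about the share of the list), exactly 2 replicates backed 388, 1 backed 134 and none backed 5. Replicates 1 and 3 without replicate 2 backed 305 members (26.6%). Apart from backing by all 3, the shares of the whole list are not given here. Replicate 2 backed 48.9% of downstream and 70.9% of divergent regions, so its lower backing was not particular to upstream regions. Within the whole replicate lists of 30000 regions, 98.6%, 77.1% and 99.0% of members were found. Backing is not independent of the thresholded list, which was made from these replicates pooled.

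Backing by replicate 2 followed the distance from the TSS. It was 27.5% for summits within 50 bp, 53.0% at 51 to 100 bp, 64.7% at 101 to 150 bp and 75% at 151 to 200 bp. Farther out it was 76.5% at 201 to 300 bp, 82.5% at 301 to 400 bp and 71.1% at 401 to 500 bp. Over the same bins replicate 1 stayed between 85.8% and 91.7% and replicate 3 between 86.1% and 93.2%, so the spread between replicates was widest for summits nearest the TSS. In wider bins, replicate 2 backed 145 of 356 members within 100 bp (40.7%, 35.6 to 46.0%), 243 of 352 at 101 to 200 bp (69.0%, 63.9 to 73.8%) and 338 of 438 beyond (77.2%, 72.9 to 81.0%, exact 95% intervals, counting error only). This bears on 1 library, so no test over replicates was possible.

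**Figure D3:**
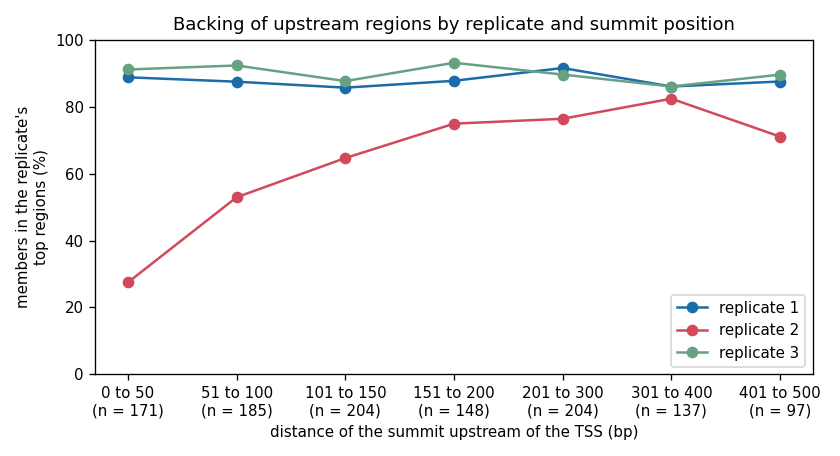
Share of upstream regions that lie in the top regions of replicate 1 (blue), 2 (red) and 3 (green), in percent (vertical axis), by distance of the summit upstream of the TSS in bp (horizontal axis, with the number of regions in each bin). Replicate 2 rises from 27.5% to 82.5% and ends at 71.1%, while the other replicates stay between 85.8% and 93.2%.

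Signal and base composition changed along the same axis. The median signal was 146 within 50 bp, 245 at 151 to 200 bp, and 193, 214 and 181 in the 3 farther bins. The median GC content of the 201 bp window was 42.8%, 33.8% and, in each of the farther bins, 34.8%. The order was also present within each part when members were split at the median signal or the median GC content, splits chosen after the data had been seen. Members at or above the median signal were backed by replicate 2 at 70.6%, 89.1% and 94.5% in the 3 wider bins, and those below it at 22.3%, 42.4% and 56.9%. The shares were 35.0%, 59.4% and 72.4% in members at or above the median GC content and 57.8%, 77.1% and 80.3% in those below it. Among members backed by both replicates 1 and 3, they were 44.0%, 73.4% and 80.9%. How far signal and GC content account for the distance was not tested.

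The distance went with replicate 2 in the neighbouring classes too. Downstream regions were backed by it at 35.2%, 49.0% and 67.9% in the same bins of distance, and divergent regions at 64.4%, 82.2% and 86.2%, the last from 29 regions. Over all distances, the share of upstream regions backed exceeded that of downstream regions by -0.140, 14.4 and 5.66 percentage points in replicates 1, 2 and 3, a mean of 6.64 ± 7.32 (80.5% against 73.8%, SD, n = 3, higher in 2 of 3 replicates). The exact sign-flip permutation test over the replicates, two-sided, gave p = 0.5 (0.667 after Benjamini-Hochberg adjustment over 4 such tests). Against divergent regions the difference was 0.331, -7.59 and 0.0920 points, a mean of -2.39 ± 4.50 (80.5% against 82.9%, p = 1.0, adjusted 1.0, exact sign-flip permutation test). Neither difference exceeded the spread between replicates. With 3 replicates this test cannot give a p below 0.25.

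Where a replicate did hold an upstream region, its summit was in most cases close to the listed one. The median distance between the listed summit and that of the replicate was 9, 20 and 11 bp in replicates 1, 2 and 3, and 84.8%, 79.8% and 90.0% of summits lay within 50 bp. The replicate summit was upstream of the TSS as well in 97.2%, 98.6% and 97.3% of cases. Of 865 members found in some region of every replicate, 834 were upstream in all 3. Only replicate regions that held the listed summit were counted, and the list was made from these replicates pooled. Such agreement is thus in part built in.

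Upstream summits of internal promoters lay farther from their TSS than those of outermost promoters. The nearest TSS was the outermost one of its gene for 796 members (69.5%), with a median position of -131 bp and a median signal of 179. It was an internal one for 350 members (30.5%), with -213 bp and a signal of 200. Replicate 2 backed 60.9% of the former and 68.9% of the latter. Within bins of distance these shares were close, 41%, 68.6% and 76.0% at outermost against 39.7%, 70.2% and 78.7% at internal TSSs. By annotation, 686 summits (59.9%) were intergenic and 288 (25.1%) lay in an intron of the gene itself, upstream of one of its internal promoters. Introns of another gene held 57, the 5' UTR of another transcript of the same gene 55, a noncoding exon of another gene 36, a 3' UTR of another gene 23 and a coding exon of the gene itself 1. A region therefore often lay inside a transcribed unit even though it was upstream of a TSS.

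Most genes had 1 upstream region, 985 of 1058, while 64 had 2 and 9 had 3 or more. The most was 6, at Rtnl1 on 2L, which has 7 annotated TSS positions. Its signals were 1501 (ranks 39, 31 and 36), 589 (298, 317 and 314), 378, 236, 198 and 149. The second region thus repeated in rank as closely as the first. The last, at -40 bp from the outermost TSS, ranked 1864 in replicate 1 and 3534 in replicate 3, and replicate 2 did not list it. The tyrosine phosphatase gene Ptpmeg2 had 4, of which the strongest, with a signal of 937, ranked 121, 92 and 112. The cAMP phosphodiesterase gene dnc, the subject of classic learning mutants, had 4 with a strongest signal of 848 (136, 112 and 148). Another, with a signal of 147, was listed by replicate 2 alone, at rank 2087. Moe, which encodes moesin, a linker of membrane and actin, also had 4, with signals from 133 to 249. The other genes with 3 were larp, brwl, RapGAP1, CG43736 and spi, the ligand of the EGF receptor, whose strongest region (signal 787) ranked 142, 118 and 247. Neighbouring members are not independent. In all, 97 members (8.46%) overlapped another listed region, and the regions of brwl, RapGAP1, CG43736, spi, dnc and Rtnl1 include such neighbours about 200 bp apart.

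The DRE word was less common at upstream regions than at divergent ones and was found near the TSS. Words were counted on both strands within 100 bp of the summit and set beside windows of the same length centred 100 bp upstream of the outermost TSS of each of 13968 protein-coding genes. TATCGATA was present in 68 members (5.93%, 4.64 to 7.46%), in 4.64% of downstream, 11.2% of divergent and 0.430% of listed regions without a promoter, and in 7.37% of all promoters. By distance from the TSS the share was 11.7% within 50 bp, 11.9% at 51 to 100 bp and 6.37% at 101 to 150 bp, and 0.730% at 301 to 400 bp. When the rule was applied to the top regions of each replicate, the share was 6.80%, 4.47% and 6.95% upstream, 3.56%, 2.16% and 4.29% downstream, and 11.6%, 7.96% and 12.4% in divergent regions. Upstream regions were above downstream ones by 2.74 ± 0.471 points and differed from divergent ones by -4.56 ± 0.982 points, with the same sign in 3 of 3 replicates. The exact sign-flip permutation test gave p = 0.25 for each, the smallest that it can give (adjusted p = 0.5).

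Motif 1 was followed along the distance of the summit from the TSS, and the GAGA word along the distance from the summit. Their positions were thus not compared. GGTCACAC was present in 51 members (4.45%), 7.40% of divergent regions and 3.74% of all promoters, and in members it fell from 9.36% within 50 bp of the TSS and 11.4% at 51 to 100 bp to 1.96% at 101 to 150 bp. CATCNCT, known as Motif 7, was present in 12.5% of members, 22.1% of divergent regions and 9.39% of all promoters. For these words too, the classes were not matched for distance from the TSS. GAGAG, the core of the GAGA factor site, was present in 25.7% of members, 25.7% of downstream regions, 12.9% of divergent regions and 22.1% of all promoters. It had 10.1 occurrences per 100 members from the summit to 50 bp toward the gene. It rose to 23.0 at 100 to 150 bp on the gene side and to 18.8 at 150 to 200 bp on the other side. In the outermost bins, 450 to 500 bp away, it had 10.6 on the gene side and 10.4 on the other, close to the value at the summit. The DRE had another profile, with 2.27 occurrences per 100 members at 50 to 100 bp toward the gene and at most 0.524 beyond 150 bp on that side. The share of members with the DRE also changed with the distance from the TSS, and the part of that distance in these profiles was not tested.

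**Figure D4:**
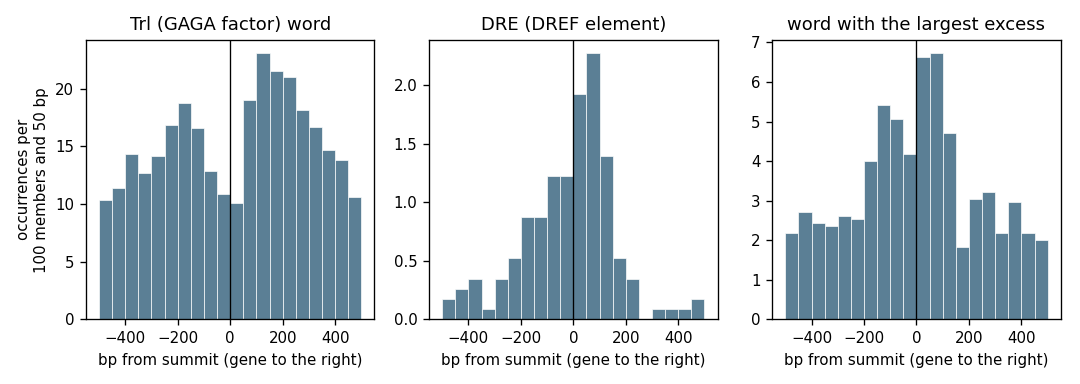
Occurrences of 3 words per 100 upstream regions in bins of 50 bp (vertical axis, a separate scale in each panel) by distance from the summit in bp (horizontal axis, the gene to the right). The GAGA factor word is at 10.1 beside the summit, reaches 23.0 at 100 to 150 bp, and is at 10.4 and 10.6 in the outermost bins. The DRE reaches 2.27 at 50 to 100 bp, and the hexamer with the largest difference from all promoters reaches 6.72 at 50 to 100 bp.

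TATAAA was present in 30.7% of members and 37.0% of all promoters, TCAGT, part of the initiator, in 33.5% and 33.6%, the pentamer CGATA in 36.5% and 38.4%, CAGCTG in 10.5% and 11.6%, CACGTG in 2.27% and 2.23%, and CAGGTAG, the word of the early factor Zelda, in 0.873% and 1.15%. GTATNTTT (Motif 6) was present in 10.9% and 11.4%, CACACA in 15.8% and 13.0%, and AAAAAA in 40.5% and 38.6%. Apart from TATAAA, these shares were within 3 percentage points of those of all promoters. The windows cover different positions relative to the TSS. Those of all promoters are centred at -100 bp, and those of members at the summit (median -154.5 bp, 438 members beyond 200 bp). How far this accounts for the share of TATAAA or of any other word was not tested. Members with the DRE were backed by replicate 2 at 47.1% and those without it at 64.4%, and with and without Motif 1 at 41.2% and 64.4%, while replicates 1 and 3 backed between 87.8% and 94.1% of each of these groups. Members with these words also lay nearer the TSS, at a median of -80.5 bp with the DRE and -69 bp with Motif 1. The 287 members of highest signal, at or above 310, held the DRE in 1.74% of cases, against 7.67%, 8.74% and 5.59% in the next 3 groups of descending signal. From the highest signal down, the median positions of these groups were -190, -150, -139 and -126.5 bp, and the part of position was not tested. None of the 25 strongest held TATCGATA or GGTCACAC. At the shares of all members, 5.93% and 4.45%, few of 25 would hold either.

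Among all hexamers, counted without regard to strand, ACAGTG differed most between members and all promoters. This word was chosen by that difference, which is thus a description. It was present in 214 members (18.7%, 16.5 to 21.1%) and 9.10% of all promoters, and also in 22.8% of downstream, 15.7% of divergent and 20.1% of listed regions without a promoter, so it was no property of upstream regions alone. Applied to each replicate, the share in upstream regions was 18.5%, 20.2% and 18.9% (19.2% ± 0.878, SD, n = 3). Unlike the DRE it kept between 16.9% and 21.6% in every bin of distance from the TSS. The next, ACACTG, was present in 19.3% of members and 11.6% of all promoters, and 33 of its 221 members also held GGTCACAC, with which it overlaps. Of 8 letters, CACTGTGC (5.58% of members against 1.06% of all promoters), CACAGTGG (5.24% against 0.916%) and ACAGTGGG (4.19% against 0.694%) extend ACAGTG on either side. In the sequences above, Rtnl1, PAN3 and Ptpmeg2 all hold the capitalised word toward an edge of the stretch and not at the summit. This was not general. Over all members, ACAGTG had 6.63 occurrences per 100 members from the summit to 50 bp toward the gene and 6.72 at 50 to 100 bp. In the outermost bins it had 2.01 on the gene side and 2.18 on the other. CAACACTG was present in 4.80% of members, 7.27% of divergent regions and 0.824% of regions without a promoter. No factor is assigned to these words here.

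Upstream regions were present at 22 of 92 cytoplasmic ribosomal protein genes and 9 of 44 genes of translation initiation factors. Of all 13968 protein-coding genes, 7.57% had an upstream region, 20.6% had any listed summit within 500 bp of a TSS, and 10.7% had a divergent region. Of the cytoplasmic ribosomal protein genes, 23.9% had an upstream region (15.6 to 33.9%, exact interval), while 59 had any summit and 29 a divergent region. These 22 summits lay between -144 bp and the TSS itself, at a median of -52.5 bp. Replicates 1, 2 and 3 backed 19, 8 and 22 of them, and the rule applied to each replicate gave 27.2%, 12% and 25% of the genes, against 7.61%, 5.68% and 7.66% of all genes. Where replicate 2 had to back a region, fewer of these genes remained. The share was 6.52% with backing by all 3 replicates or by replicates 1 and 2, and 8.70% with backing by replicates 2 and 3, against 4.09%, 4.33% and 4.39% of all genes under the same 3 conditions. With backing by replicates 1 and 3 it was 20.7%, against 6.14%. In the higher-signal part of the list it was 14.1%, against 4.01%. With a limit of 250 bp it was 34.8%, against 7.56%, and with 1000 bp 16.3%, against 7.62%. Replicate 2 was the lowest by its own list too, and whether its distance from the others differed between these genes and all genes was not tested. RpL23A had the highest signal, 619, with ranks 233, 964 and 221. For RpL22, with a signal of 381, the ranks were 529, 9326 and 558, so that replicate 2 did not back it. RpS14b has a near-identical copy, RpS14a, and is uncertain.

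Translation initiation factors had an upstream region at 9 of 44 genes (20.5%, 9.80 to 35.3%), led by eIF6 and eIF3c (signal 554, ranks 377, 205 and 496), and replicates 1, 2 and 3 backed 8, 3 and 8 of them. Their share was 6.82% wherever replicate 2 had to back the region, and 15.9% with backing by replicates 1 and 3. A divergent region was present at 4 of the 44. Of 75 mitochondrial ribosomal protein genes, 33 had a listed summit and 29 a divergent one, but only mRpL41 and mRpL4 (signal 271, ranks 1288 and 1683 in replicates 1 and 3, unlisted in replicate 2) had an upstream region (2.67%, 0.325 to 9.30%). Of 33 aminoacyl-tRNA synthetase genes, which charge tRNAs, 10 had a divergent region and none an upstream one (upper limit 10.6%). With a limit of 250 bp the upstream shares of these 2 lists were 8.0% and 9.09%, close to the 7.56% of all genes. By the rule, a gene whose neighbour starts within the same 500 bp on the other strand is counted there and not here.

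**Figure D5:**
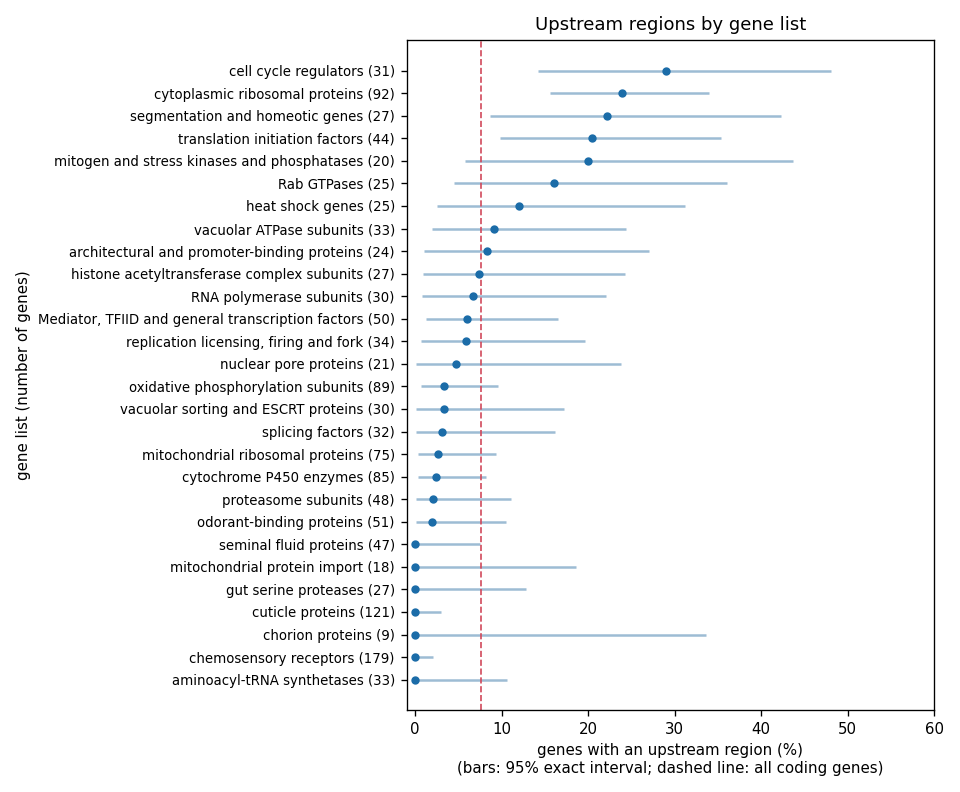
Share of the genes of each of 28 lists that had an upstream region, in percent (points, horizontal axis), with 95% exact intervals (bars) and the number of genes in parentheses. The dashed line is the share of all protein-coding genes, 7.57%, and the intervals of cell cycle regulators, cytoplasmic ribosomal proteins, segmentation and homeotic genes and translation initiation factors lie above it.

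Of 31 cell cycle regulators, 9 had an upstream region (29.0%, 14.2 to 48.0%), against 7.57% of all genes. Any listed summit was present at 16 of the 31 (51.6%, against 20.6% of all genes) and a divergent region at 7 (22.6%, against 10.7%). The higher share was thus not particular to upstream regions. The 9 with an upstream region were led by Dp, which encodes the partner of E2F (signal 308, ranks 1284, 693 and 1437). Next was BubR1, a kinase of the spindle checkpoint (signal 196, ranks 2527 and 1995 in replicates 1 and 3, unlisted in replicate 2). Replicates 1, 2 and 3 backed 8, 2 and 8 of the 9, and the rule applied to each replicate gave 29.0%, 9.68% and 25.8% of the genes, against 7.61%, 5.68% and 7.66% of all genes. Over all members, replicate 2 backed 63.4%, and of those below the median signal between 22.3% and 56.9% by distance. With backing by replicates 1 and 3 the share of cell cycle regulators was 22.6%, against 6.14% of all genes. It was 3.23% with backing by all 3 replicates or by replicates 2 and 3, against 4.09% and 4.39%. With backing by replicates 1 and 2 it was 6.45%, against 4.33%. It was also 6.45% in the higher-signal part of the list, against 4.01% of all genes, and it was 22.6% with a limit of 250 bp. Genes of replication licensing, firing and the fork, the process of the Dbf4 and Cdc7 kinase, had 2 of 34 (5.88%), chif itself and PolA1 of DNA polymerase alpha (signal 188, ranks 1723, 3195 and 2527). The chif summit lay at -84 bp from an internal TSS (signal 353, ranks 1236, 585 and 1001). The tagged copy carries chif sequence too, and its reads cannot be told apart there from those of the resident gene.

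Genes of transcription and chromatin were near the share of all genes for upstream regions only. Any listed summit was present at 32.0% of Mediator, TFIID and general transcription factors and 33.3% of RNA polymerase subunits. It was present at 21.9% of splicing factors, 28.6% of nuclear pore proteins, 37.0% of histone acetyltransferase complexes and 58.3% of architectural proteins. Of all genes, 20.6% had one. Their divergent shares ran from 15.6% to 37.5%, against 10.7% of all genes. For upstream regions, Mediator, TFIID and general transcription factors had 3 of 50 (6.00%). Among them were MED4 (signal 337, ranks 913, 1564 and 857) and Taf4 (301, ranks 1257, 1314 and 972). RNA polymerase subunits had 2 of 30, Polr2F and Polr3G, splicing factors 1 of 32, snRNP-U1-70K, and nuclear pore proteins 1 of 21, Nup107. Histone acetyltransferase complexes, to which Gcn5 belongs, had 2 of 27 (7.41%), nej, the fly gene of CREB-binding protein (signal 196), and chm, a MYST family acetyltransferase gene (137). Architectural and promoter-binding proteins had 2 of 24 (8.33%), Mnt, a partner of Max (signal 276), and BEAF-32, an insulator protein (205). Their interval runs from 1.03 to 27.0%, so a difference from all genes in the upstream share was not detectable with these numbers.

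Of 27 segmentation and homeotic genes, 6 had an upstream region (22.2%, 8.62 to 42.3%), and no other gene of the list had any listed summit within 500 bp. Their share with any summit was thus 22.2%, close to the 20.6% of all genes, and none had a divergent region (upper limit 12.8%, against 10.7% of all genes). They were bcd, the anterior morphogen, wg, a Wnt ligand, lab, opa, slp1 and gsb. The bcd region had a signal of 545, a summit at -212 bp and ranks of 477, 483 and 248, so it stood high in all 3 replicates. The other 5 had signals from 106 up to the 173 of wg, and replicate 2 listed no region for wg (ranks 1759 and 2692 in the other replicates). Replicates 1, 2 and 3 backed 5, 1 and 4 of the 6. With replicate 2 among those that had to back a region, and also in the higher-signal part of the list, only bcd remained (3.70% of the genes, against 4.01 to 4.39% of all genes).

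Kinases and phosphatases of mitogen and stress signalling had 4 of 20 (20.0%, 5.73 to 43.7%), led by Tak1 (signal 232, ranks 1831, 3371 and 1378). Heat shock genes had 3 of 25 (12%, 2.55 to 31.2%), the small heat shock protein genes Hsp27 (signal 508, ranks 349, 384 and 523), Hsp26 (334, ranks 716, 3624 and 787) and Hsp22. Rab GTPases of vesicle traffic had 4 of 25 (16.0%), led by Rab5 (194) and Rab11 (159), vacuolar ATPase subunits 3 of 33 (9.09%), with Vha16-1 (215) and Vha68-2 (157) the strongest, and vacuolar sorting and ESCRT proteins 1 of 30, Vps15 (243). Oxidative phosphorylation subunits had 3 of 89 (3.37%), led by ND-B17 (208) and RFeSP (143), against 16 with a divergent region. Proteasome subunits had 1 of 48, Rpn11 (170), and mitochondrial protein import none of 18. These intervals all include the share of all genes.

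Genes of particular tissues or of adult functions had hardly any upstream region. None was found at 179 chemosensory receptor genes (upper limit 2.04%), 121 cuticle protein genes (3.00%), 47 seminal fluid protein genes (7.55%), 27 gut serine protease genes (12.8%) or 9 chorion protein genes (33.6%). The upper limits of the first 3 lists lie below the 7.57% of all genes and those of the last pair do not. Odorant-binding proteins had 1 of 51 (0.0496 to 10.4%), Obp99b (signal 361, ranks 407, 23853 and 597). Cytochrome P450 enzymes had 2 of 85 (0.286 to 8.24%), Cyp310a1 (319, ranks 1179, 1617 and 841) and Cyp317a1 (122.7). Both intervals include the share of all genes. Any listed summit within 500 bp of a TSS was rare too, against 20.6% of all genes. It was present at 1 chemosensory receptor gene, 1 seminal fluid protein gene, 1 odorant-binding protein gene and 3 cytochrome P450 genes. No cuticle, gut serine protease or chorion gene had one. The low share was thus not particular to upstream regions. Obp99b stood high in replicates 1 and 3 and near the end of the list of replicate 2.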

How the data were processed

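The files are narrowPeak lists of ChIP-seq regions on dm6 and dm3, and the dm3 lists were not used here. Per the notes deposited with the samples, the authors called 1 list per replicate and 1 on the pooled alignments, each against the same control file, and derived the thresholded list from these with the irreproducible discovery rate. For the aligner, peak caller and threshold, the sources used here name none. The deposited signal is the score of the authors' caller, of unstated scale, and was used only to rank regions within a list. The deposited −log10 q-values reach a ceiling and were not used for ranking. The summit offset deposited with each region was added to its start, and coordinates are 1-based. The 5035 thresholded regions were found, by position, to be the 5035 of highest signal in the pooled list, and each replicate list held 30000 regions. No list gives counts or depth, so precision is given as the spread over 3 replicates and as exact 95% binomial intervals, which cover counting error only and treat regions or genes as independent.

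TSSs came from the Ensembl annotation BDGP6.54, release 115, and sequence from the RefSeq Release 6 genome, assembly of dm6. There were 13968 protein-coding genes with 19275 distinct TSS positions. Python 3.11.15, pandas 2.3.3, numpy 2.4.6 and scipy 1.17.1 were used. The classification was tested on made-up regions of known class. The 13 motifs, and all words of 6 and 8 letters, were searched on both strands within 100 bp of the summit. Replicates were compared through the 5035 top regions of each. Differences between region classes were tested over the 3 replicates by an exact sign-flip permutation test, two-sided.

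Genes named are those of the 25 strongest upstream regions, the 2 strongest of each of 28 gene lists, genes with 3 or more upstream regions, and the regions just inside and outside each limit of the rule. One gene that this rule names is not reported here. Others are named where a sequence or a whole list is given, and were chosen after their values were seen. The members, gene lists and motifs were chosen with earlier results of these data known. Alternatives were a TSS distance of 250 or 1000 bp, genes of any biotype, the higher-signal part of the list, backing by all 3 or by pairs of replicates, 2500 or 10000 top regions, summits within 50 bp of each other, and windows of 50 or 150 bp.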

Additional observations from a re-analysis of the deposited data

How the results depend on the processing

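The count of 1146 upstream regions became 595 in the higher-signal part of the list, 619 with backing by all 3 replicates, and between 654 and 924 when 1 replicate was left out and both others had to back a region. The share upstream among single-gene regions was 75.7% at 1000 bp, 87.1% in the higher-signal part and also with backing by all 3, and 83.8 to 86.8% with 1 replicate left out. The median position was -107 bp at a TSS distance of 250 bp, -213 bp at 1000 bp, -188 bp with backing by all 3, and -190 to -156 bp with 1 replicate left out. The median signal was 303, 278 and 217 to 270 in the higher-signal part, with backing by all 3 and with 1 replicate left out. Left out, replicate 2 gave a median position of -156 bp, and replicates 1 and 3 gave -186 and -190 bp. The 250 bp and 1000 bp limits cap the distance by construction, and the cause of the other shifts was not tested. The difference in backing from divergent regions was 0.211 points without replicate 2 and -3.75 to 0.211 over the replicates left out, against -2.39 with all. Without a replicate, the difference in backing from downstream regions was 2.76 to 10.03 points, and that in the DRE share 2.49 to 2.95 points from downstream and -5.09 to -4.13 from divergent regions. The DRE difference from downstream regions was 0.0997 points with the 2500 top regions of each replicate (p = 0.75, exact sign-flip permutation test), against 2.74. In windows of 50 bp that difference was 1.35, and from divergent regions it was -2.17, against -8.60 in windows of 150 bp. At 250 bp and 1000 bp the DRE differences were 3.84 and 2.87 from downstream, and -2.88 and -5.84 from divergent regions. Backing differed from downstream regions by 4.64 to 11.9 points and from divergent ones by -4.91 to -0.0654 points over the settings that keep all replicates. Of 224 gene list values under other settings, 174 lay within the list's own interval and 50 outside it. No paired analysis was possible because there is no other group to pair with, and differences between region classes were taken within each replicate. The unknown depth and the 3 replicates limit every comparison, and 1 control file shared by all lists could not be separated from them.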

Other observations

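Upstream regions were spread evenly over the large chromosome arms, and chromosome 4, a small and largely heterochromatic chromosome, stood apart in a handful of regions. They made up between 20.9% and 25.7% of the listed regions of 2L, 2R, 3L, 3R and X, and belonged to between 7.08% and 8.83% of the protein-coding genes there. On chromosome 4, 10 of 22 listed regions were upstream ones (45.5%), at 9 of 80 genes (11.25%). These counts are small and were not tested.

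In 71 members a TSS of a noncoding gene also lay within 500 bp of the summit, so assignment to the coding gene is by the rule and not by distance alone. Of all members, 799 were exactly 410 bp wide. A pair of members at spi shared the same start and end and differed only in the summit, and 1 member, at brwl, had its summit 1 bp past its listed end. Of the 1058 genes, 297 carried only a CG number as a name.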
